A study of Mus musculus with 6 samples.

Results

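The miR-9 family was examined in hippocampal neural stem cells, the dividing precursors of neurons and glia. Its members were all rows of the miRNA table whose name begins with mmu-miR-9- or mmu-miR-9b-, which gave 4 of 1522 rows: mmu-miR-9-5p, mmu-miR-9-3p, mmu-miR-9b-3p and mmu-miR-9b-5p (the prefix is left out below). Male C57BL/6J pups gave the hippocampal cells on postnatal day 3, and their small RNA was sequenced. In the GDE group (gestational dexamethasone exposure, titled IUGR) the dams' daily intraperitoneal injection held dexamethasone (1 mg/kg), which activates the glucocorticoid receptor; it began on embryonic day E14.5 and ended on E18.5. Dams of the Control group (titled Normal) had received saline on the same days. Each group had 3 libraries, which the design text assigns to independent litters. Levels are RPM, tags scaled to a common depth of the libraries, whose own depth was 11751000 to 12385000 tags.

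miR-9 is among the most abundant miRNAs of the developing brain and is strongly enriched in neural progenitors. A miRNA hairpin is cut into a 5p and a 3p strand, and base pairing of the seed, bases 2 to 8 of the strand that is loaded, selects the mRNAs that are repressed. miR-9-5p is known to repress the progenitor factors Nr2e1 (Tlx) and Hes1 and the neuronal gene silencer Rest. miR-9-3p, long called miR-9*, is known to repress the Rest partner Rcor1 (CoREST) and the progenitor chromatin subunit Actl6a (BAF53a). The miR-9b rows belong to hairpins annotated on the opposite strand of the miR-9 loci.

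The 4 mature sequences are shown because their relation to one another may bear on the levels that follow. They are from RefSeq, written 5′ to 3′, with the seed in capitals.
miR-9-5p: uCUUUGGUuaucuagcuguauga
miR-9-3p: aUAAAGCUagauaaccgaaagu
miR-9b-3p: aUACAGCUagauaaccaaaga
miR-9b-5p: uUCGGUUAucuagcuuuauga
The 4 seeds all differed, and no other row of the table with a RefSeq sequence carried any of them. miR-9b-3p resembles miR-9-3p. Aligned from their 5′ ends, 17 of 21 bases matched and the substitutions, counted from 1 at the 5′ end of miR-9-3p, were A4C, G17A, A20G and G21A, the first of them inside the seed. miR-9b-5p resembles miR-9-5p shifted by 2 bases. There 19 of 21 bases matched, with U5C and G18U counted from the 5′ end of miR-9-5p.

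The miR-9b sequences are also reverse complements of the miR-9 strands across the hairpin. All 21 bases of miR-9b-3p are the reverse complement of bases 1 to 21 of miR-9-5p. Bases 1 to 19 of miR-9b-5p are the reverse complement of bases 1 to 19 of miR-9-3p. The hairpins at the chromosome 3 locus show this arrangement, with the mature strands in capitals.
Mir9-1, plus strand: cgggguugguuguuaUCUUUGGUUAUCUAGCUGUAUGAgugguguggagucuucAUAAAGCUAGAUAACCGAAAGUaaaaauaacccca
Gm25641, minus strand: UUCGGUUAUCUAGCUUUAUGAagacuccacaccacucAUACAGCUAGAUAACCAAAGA
How the strand of a read was used in counting is not given in the sources used here, so tags of miR-9-5p and miR-9b-3p, which are antisense to each other, cannot be told apart with certainty in these levels.

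Each mature miR-9 strand is made from 3 loci and its level cannot be divided among them. On GRCm38, Mir9-1 lies at chr3:88215598-88215686 (plus strand), in an intron of the lincRNA gene Gm3764. Mir9-2 lies at chr13:83738814-83738885 (plus strand), within the lincRNA gene C130071C03Rik and overlapping annotated exons of it. Mir9-3 lies at chr7:79505264-79505353 (plus strand), in an intron of the lincRNA gene Mir9-3hg. The opposite-strand precursors are Gm25641 on chromosome 3, Gm51268 on chromosome 13 and Gm51285 on chromosome 7. The other miRNA precursor annotated within 10 kb of any of these loci was Mir3093, upstream of Mir9-1 at chr3:88215171-88215257 on the same strand. Its main strand was far below the miR-9 strands: miR-3093-3p stood at 23.4, 31.7 and 36.0 RPM in the GDE libraries and 32.7, 40.9 and 30.8 RPM in those of Control, so the groups overlapped.

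miR-9b-3p, the strand antisense to miR-9-5p, was the most abundant row of the table in all 6 libraries. GDE replicates 1 to 3 held 9346, 9470 and 9264 RPM of it, and Control replicates 1 to 3 held 9310, 9068 and 9543 RPM. The lowest and the highest library were both Control, so the GDE values lay inside the Control range. The means of GDE and Control were 9360 ± 104 and 9307 ± 238 RPM (SD, n = 3 each).

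miR-9-5p, the strand with the best known progenitor targets, reached 8259, 8630 and 8277 RPM in the GDE libraries and 8295, 8154 and 8831 RPM in those of Control. Again the extremes were Control libraries and the groups overlapped. Its means were 8389 ± 209 and 8427 ± 357 RPM (SD, n = 3 each), and it ranked between 4 and 6 in every library.

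miR-9-3p varied most among the abundant members. The GDE libraries held 7069, 8428 and 8148 RPM, and the Control libraries 8300, 7565 and 7881 RPM. Both extremes were GDE libraries: GDE replicate 1 was lowest and GDE replicate 2 highest. The means were 7882 ± 718 and 7915 ± 369 RPM (SD, n = 3 each). Its rank was 14 in GDE replicate 1 and 5 to 9 in the other libraries.

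miR-9b-5p was nearly absent. It was at 0.751, 0.762 and 0.247 RPM in GDE, which are 9, 9 and 3 tags, and at 0.166, 0.323 and 0.255 RPM in Control, which are 2, 4 and 3 tags. GDE replicates 1 and 2 were above all Control libraries and GDE replicate 3 lay among them. A count of 0 in a library would allow up to 3 tags, so 3 of the 6 libraries were at or under that limit.

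**Figure D1:**
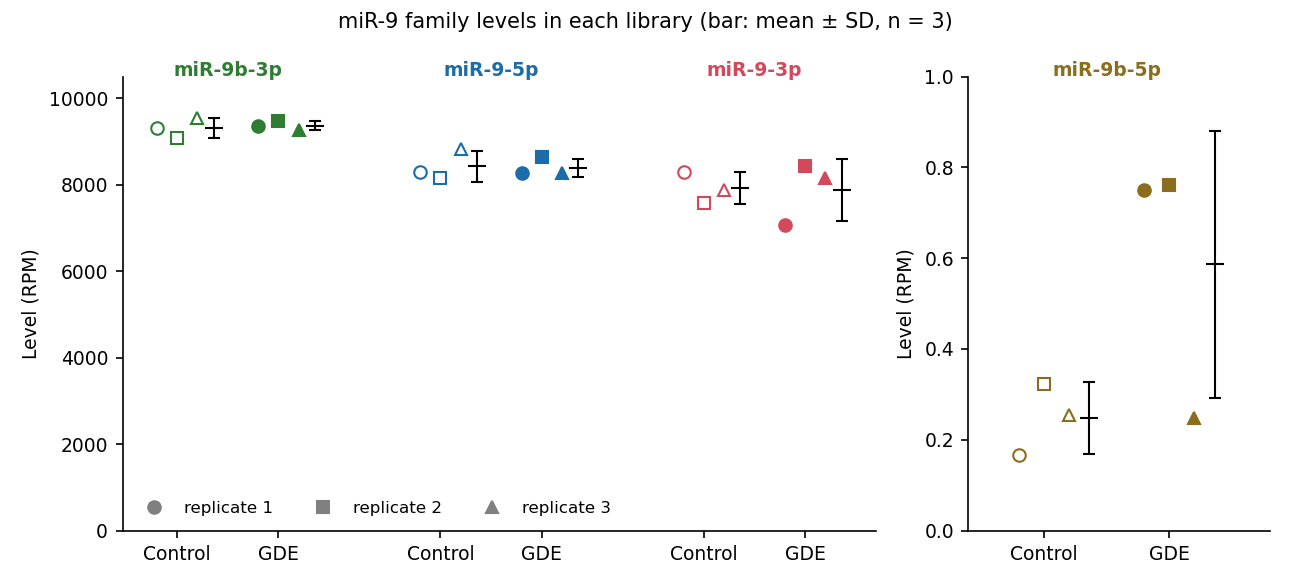
Level of each miR-9 family member in RPM (vertical axes, from 0) in the Control (open symbols) and GDE (filled symbols) libraries, with the mean and SD of 3 libraries beside them. The 3 abundant members lie between 7069 and 9543 RPM with overlapping groups, while miR-9b-5p, on its own axis, stays under 1 RPM.

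No member of the family differed between the groups beyond the spread of the replicates. Of the 4 members, 3 passed the filter on low values (at least 1 RPM in 3 or more libraries) and 0 of these 3 passed the threshold over all tested miRNAs in limma, where 0.308% of the 649 tested rows did. An unadjusted p under 0.05 was found for 0 of the 3 in limma, against 8.63% of the tested rows. On the recovered tags, edgeR called 0 of the 3 and 2 of the 649 rows. DESeq2 called 0 of the 3 and 7 of the 649. The log2 fold of miR-9-5p was -0.006 ± 0.0544 (SE), with an adjusted p of 0.994 in limma and an exact two-sided permutation p of 0.8. That of miR-9-3p was -0.0092 ± 0.0778, with an adjusted p of 0.989 in limma and an exact permutation p of 1.0. That of miR-9b-3p was 0.0085 ± 0.0471, with an adjusted p of 0.989 in limma and an exact permutation p of 0.9. The tags of miR-9b-3p ran only from 111884 to 112346 over the libraries. Its fold therefore mainly carries the division by depth. In limma the SE of each fold, and the interval given below, borrow from the spread of other rows. For miR-9b-3p the SE of 0.0471 thus does not come from its own within-group SD of 0.0284 alone. With 3 against 3 libraries the exact test cannot go below 0.1. The groups overlapped for all 3, against 14.6% of tested rows whose groups did not overlap.

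These p-values do not show that the levels were equal. At the deposited scaling, the 95% interval of GDE over Control ran from 0.913-fold to 1.087-fold for miR-9-5p, from 0.877-fold to 1.126-fold for miR-9-3p and from 0.933-fold to 1.085-fold for miR-9b-3p. The interval does not cover the choice of scaling. Under other scalings of the libraries the signs of miR-9-5p and miR-9-3p turned positive: with TMM factors the 3 log2 folds were 0.10, 0.09 and 0.11 in the order miR-9-5p, miR-9-3p and miR-9b-3p, with adjusted p of 0.798, 0.81 and 0.725 in limma. No direction is therefore given for any of them.

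**Figure D2:**
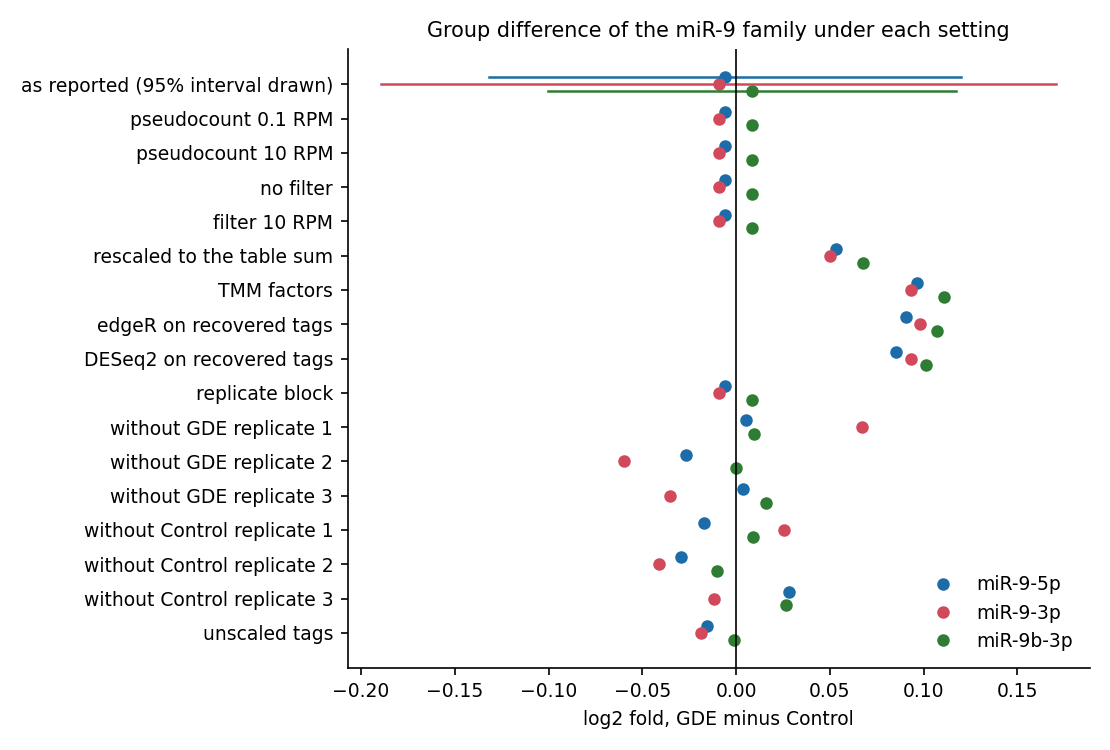
Log2 fold of GDE over Control (horizontal axis) for miR-9-5p, miR-9-3p and miR-9b-3p under each processing setting (rows), with the 95% interval drawn for the values as reported. All points lie between -0.06 and 0.11, on both sides of 0.

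For miR-9b-5p the 3 GDE libraries held 21 tags in sum and the Control libraries 9. The ratio per depth was 2.35, with a 95% interval of 1.03 to 5.83 that covers counting error only. The means were 0.587 ± 0.294 and 0.248 ± 0.079 RPM (SD, n = 3 each; exact permutation p = 0.3). Tested without the filter, its log2 fold on the log2(RPM + 1) scale was 0.33 (SE 0.17; limma, adjusted p = 0.71 over 1522 rows). At this depth no difference of miR-9b-5p between the groups was shown beyond the spread of the libraries.

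The order of the 3 abundant members was then read within libraries. A tag covers a whole mature strand of 21 to 23 bases, so RPM needed no correction for length, although the ease of adapter ligation differs between small RNA sequences. miR-9b-3p exceeded miR-9-5p in 6 of 6 libraries, by a ratio of 1.11 ± 0.019 (SD over the 6 libraries), and exceeded miR-9-3p in 6 of 6, by 1.19 ± 0.077. miR-9-5p exceeded miR-9-3p in 5 of 6 libraries. In Control replicate 1 these strands were level, at a ratio of 0.999, and in GDE replicate 1 the ratio was highest, at 1.17.

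Against other miRNAs, the place of the members was clear at the top and unclear below. miR-9b-3p stood above the next row, let-7c-5p, in all 6 libraries, by 341.6 ± 109.9 RPM (mean ± SD of the difference, n = 6). miR-9-5p stood below miR-99a-5p in all 6, by 338.0 ± 146.3 RPM, but it was above let-7b-5p in just 3 of 6, with a difference of 63.7 ± 169.1 RPM. miR-9-3p was below let-7a-5p in 3 of 6 libraries and above miR-34a-5p in 4 of 6. So let-7b-5p did not differ from miR-9-5p, nor let-7a-5p and miR-34a-5p from miR-9-3p, beyond their spread.

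The near-equal levels of the strands made miR-9 unlike most other precursors. Both strands of a hairpin are cut together, but usually one is loaded and the other decays. Over the 146 arm pairs with both arms past the filter, the median absolute log2 ratio of the arms was 3.57, and for miR-9 it was 0.092. Pairs were counted by strand names. Precursors giving the same strands, such as the 3 of miR-9, count once, and a strand of several precursors can enter more than once. Of the other arm pairs, 2 were closer to even: miR-3061, with arms at 9.88 and 9.73 RPM, and miR-574, at 96.7 and 89.2 RPM (named after their values were seen). Among 16 arm pairs with an arm above 5000 RPM, miR-9 was the 1 pair with both arms above that level. The next in its weaker arm was let-7d, whose 3p arm was at 2573 RPM against 7056 RPM for its 5p arm. Rows of different precursors were also close together at the top, with means of 9333 RPM at rank 1 and 7407 RPM at rank 12. How far the even arms of miR-9 reflect this closeness was not tested.

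**Figure D3:**
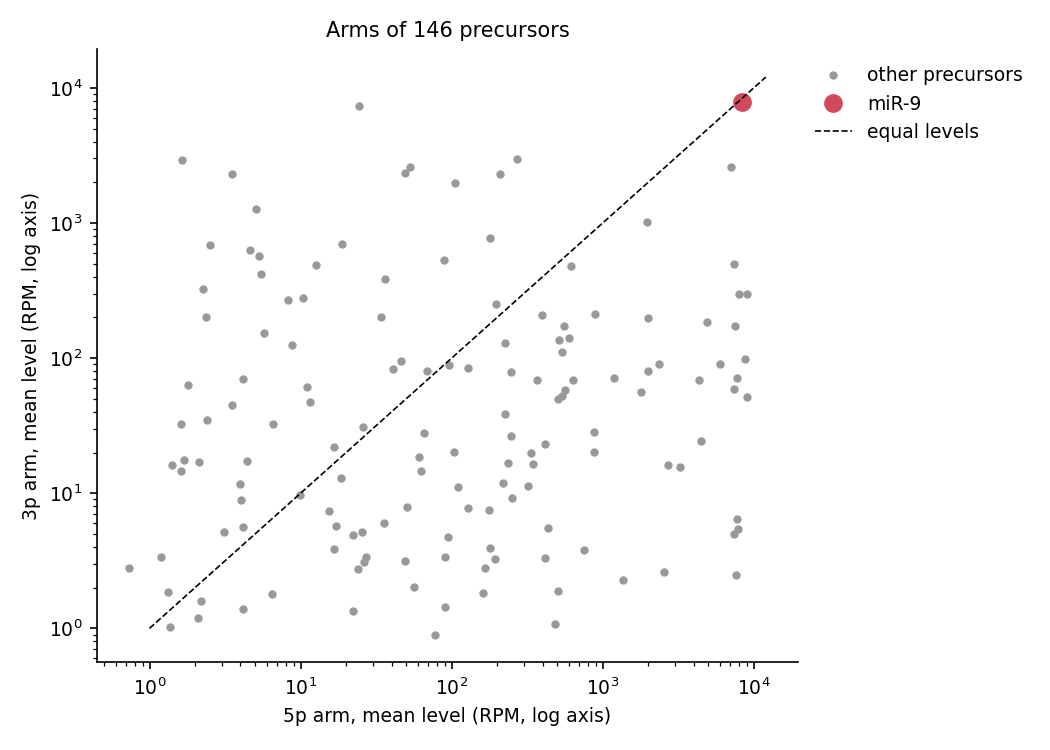
Mean level over 6 libraries of the 3p arm (vertical, RPM, log axis) against the 5p arm (horizontal, RPM, log axis) for 146 arm pairs, each a point. miR-9 lies on the line of equal levels at the upper end, at 8408 RPM for the 5p and 7898 RPM for the 3p arm.

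The balance of the arms did not differ detectably between the groups. The ratio of miR-9-5p over miR-9-3p was 1.168, 1.024 and 1.016 in GDE and 0.999, 1.078 and 1.121 in Control. GDE replicate 1 was highest and Control replicate 1 lowest, and the other libraries were mixed. The log2 ratio differed by 0.0033 (SE 0.195; limma, adjusted p = 0.995; exact permutation p = 1.0), with a 95% interval of -0.45 to 0.456. This error borrows from the spread of the ratios of the other arm pairs. Of the 146 arm pairs 0% passed the threshold, and 8.9% had an unadjusted p under 0.05 in limma. edgeR and DESeq2 were not run on arm ratios.

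The arms of miR-9b were far from balanced in the counted tags. Over all libraries miR-9b-3p had 672644 tags and miR-9b-5p had 30, a ratio of 22421 with a 95% counting interval of 15706 to 33232.

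Antisense rows were next compared across the table. The table held 18 pairs of rows whose RefSeq sequences are reverse complements of each other over at least 18 bases. In 2 of these pairs the rows were arms of the same hairpin, miR-299a in 1 and miR-374c in the other. The pair of miR-9b-3p and miR-9-5p was the most abundant, at means of 9333 and 8408 RPM. These are within 1.11-fold of each other, with the unrelated rows let-7c-5p and miR-99a-5p between them in level. The second pair of the family behaved otherwise: miR-9-3p was at 7898 RPM and its complement miR-9b-5p at 0.417 RPM.

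Other abundant antisense pairs were also unequal. Of the 8 pairs whose higher row had at least 100 RPM, that of miR-9b-3p and miR-9-5p was the 1 pair within 2-fold. The 6 such pairs outside the family differed by 4.35-fold to 6367-fold. miR-24-3p, a widely expressed miRNA, was at 2285 RPM and its complement miR-3074-5p at 11.5 RPM. miR-129-5p, a miRNA of neurons, was at 887.1 RPM and miR-129b-3p at 0.139 RPM. The smallest ratio of these 6 was that of miR-24-2-5p, at 207.5 RPM, over miR-3074-2-3p, at 47.7 RPM. The 2 other pairs within 2-fold, the arms of miR-299a and the arms of miR-374c, were each under 1 RPM. Whether tags of miR-9-5p were counted for miR-9b-3p was not tested, as the table holds no reads.

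**Figure D4:**
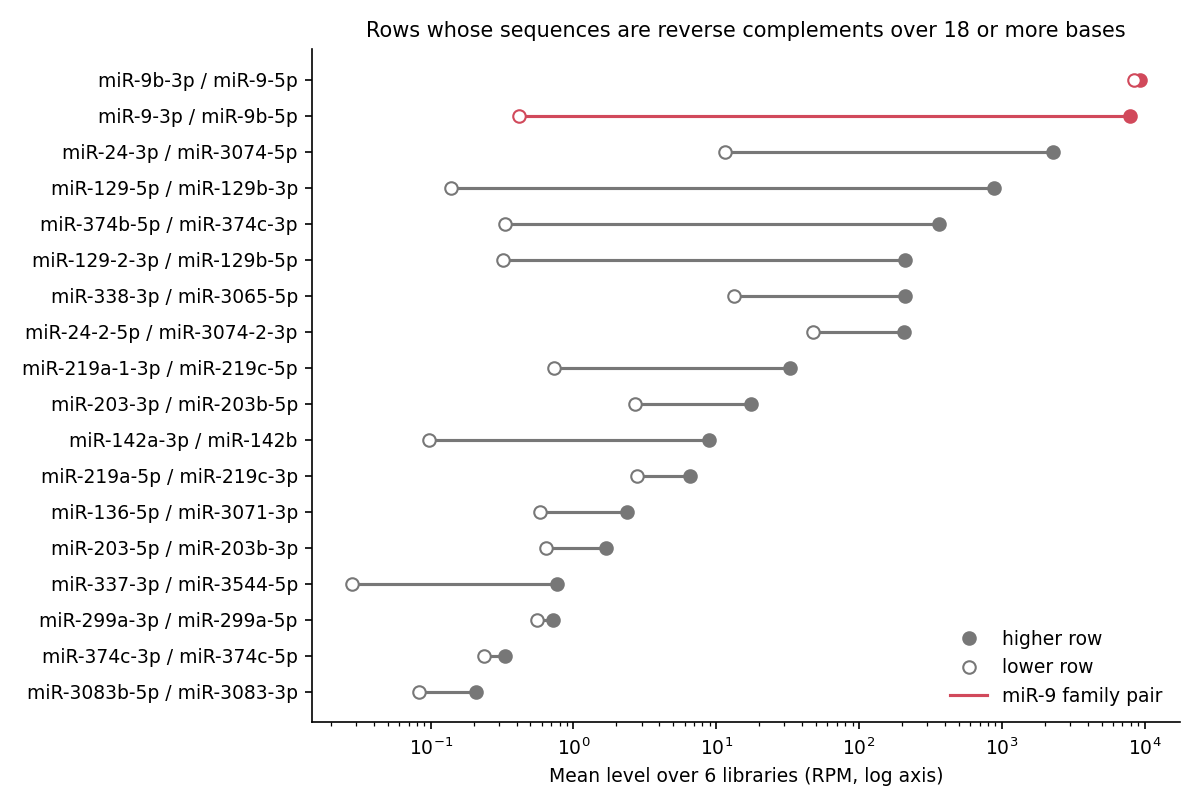
Mean level over 6 libraries (RPM, log axis) of the higher (filled) and lower (open) row of each of 18 pairs of rows that are reverse complements over 18 or more bases, with the miR-9 family in red. The pair of miR-9b-3p and miR-9-5p lies within 1.11-fold at the top, while miR-9-3p and miR-9b-5p stand at 7898 and 0.417 RPM.

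The spread between replicates differed among the members. miR-9b-3p had the lowest within-group SD of all 649 tested rows, 0.028 on the log2(RPM + 1) scale. miR-9-5p, at 0.05, had the 10th lowest. miR-9-3p, at 0.11, was 38th, and among the 18 rows above 5000 RPM it was 17th. The median within-group SD was 0.049 over those 18 rows and 0.285 over all tested rows.

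In recovered tags, before division by depth, the contrast was larger. miR-9b-3p held 111947, 111884 and 112346 tags in GDE and 112022, 112301 and 112144 in Control. The highest count was 1.0041 times the lowest, while the value of 1 tag in RPM varied by 1.054 times between libraries. The RPM of miR-9b-3p ranked the libraries in the same order as the value of 1 tag, which was not so for miR-9-5p or miR-9-3p. The variance over the mean of its tags was 0.319, and counting error alone gives 1 on average. Whether 0.319 lies below what counting error can give over 6 libraries was not tested. The row was also the least variable of those tested.

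miR-9-5p held 98931 to 103778 tags, with a variance over mean of 29.1. miR-9-3p held 84677 to 99868 tags, with a variance over mean of 364.7, and its lowest count was again GDE replicate 1. The coefficient of variation over 6 libraries was 0.169% for the tags of miR-9b-3p, 1.70% for miR-9-5p and 6.20% for miR-9-3p. In RPM it was 1.79%, 3.12% and 6.46% in that order. Low values in tags were not particular to the family: miR-99a-5p was at 0.93%, let-7c-5p at 1.19% and let-7b-5p at 1.41%. Over the 20 most abundant rows it ran up to 9.91%. Whether something in library making or counting limited the tags of the most abundant rows was not tested. Close levels of the groups, or of the members, are therefore not shown to be equal amounts of RNA.

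**Figure D5:**
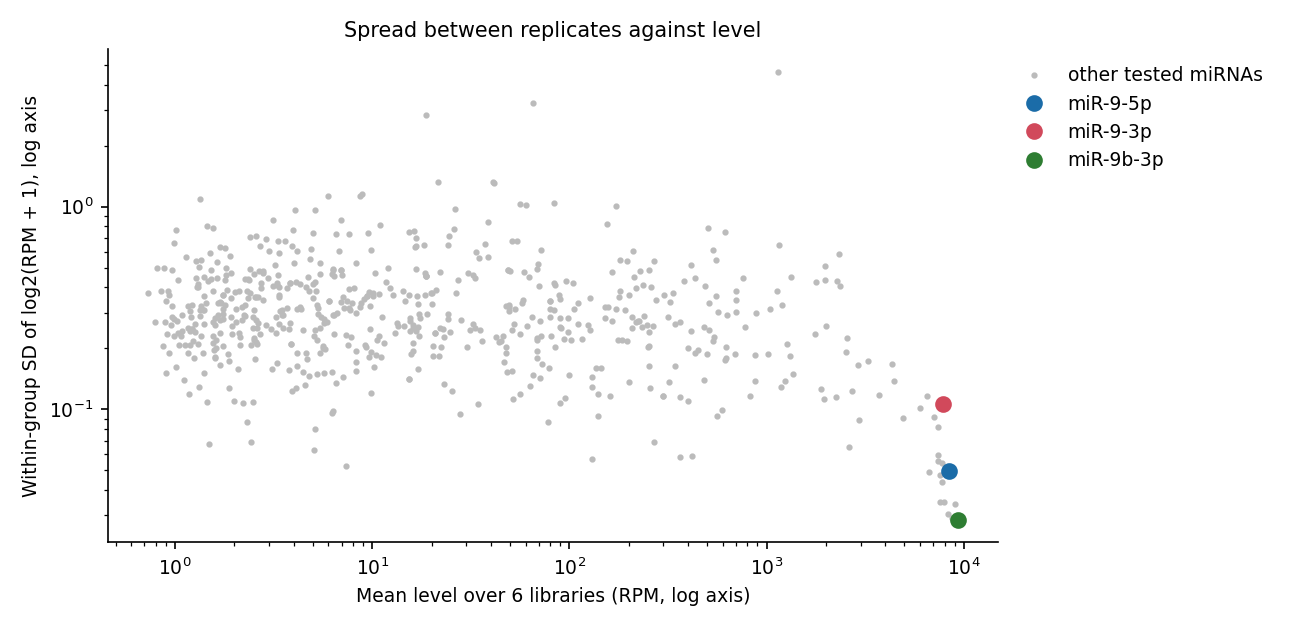
Within-group SD of log2(RPM + 1) (vertical, log axis) against mean level over 6 libraries (RPM, log axis) for the 649 tested miRNAs, each a point. The members sit at the upper end of the levels with an SD of 0.028 for miR-9b-3p, 0.05 for miR-9-5p and 0.11 for miR-9-3p.

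The miRNAs most like each member across the 6 libraries were mainly other abundant ones. Likeness was the root mean square difference of log2(RPM + 1) after each row's own mean was removed, over 561 other named rows, where the median distance was 0.276 from miR-9-5p and 0.273 from miR-9b-3p. Nearest to miR-9-5p was its antisense partner miR-9b-3p, at 0.022, followed by miR-99a-5p and let-7c-5p. Nearest to miR-9b-3p were miR-99a-5p at 0.012, let-7c-5p at 0.016 and let-7b-5p at 0.018, with miR-9-5p next at 0.022.

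For miR-9-3p the partner strand was among the near rows but was not the nearest. Its nearest rows were miR-16-5p at 0.059, miR-27a-3p at 0.067 and let-7i-5p at 0.075. miR-9-5p came 5th of 561 at 0.081, where the median distance from miR-9-3p was 0.276. From the side of miR-9-5p, miR-9-3p came 24th. Distances between rows that both vary little are short by construction.

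Together the 4 members made up 9.56%, 10.20% and 10.64% of all RPM in the table in GDE and 9.32%, 9.77% and 10.09% in Control. GDE replicate 3 was highest and Control replicate 1 lowest, and the groups overlapped (exact permutation p = 0.4). These 2 libraries also had the lowest and highest table sums, 241370 and 277888 RPM, while the sum of the family lay between 24674 and 26529 RPM in all libraries.

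Other miRNAs with known roles in neural progenitor proliferation or neuronal differentiation showed no call either. They are called neurogenesis partners here as a name for the list, which was chosen by role and not by action with miR-9. Of 20 listed neurogenesis partners all were tested, and 0 passed the threshold in limma, beside 0.308% of all tested rows, with a lowest adjusted p of 0.57. Their log2 folds were positive for 6 and negative for 14, and the median was -0.06. Over all tested rows 252 (38.8%) were positive and 397 negative, and the median was -0.067. With TMM factors the split was 11 positive and 9 negative with a median of 0.043 for the partners, and 342 (52.7%) positive and 307 negative with a median of 0.017 over all tested rows. Rescaled to the table sum it was 10 and 10 for the partners, and 305 (47%) and 344 with a median of -0.017 over all. No direction is given for the list. The groups overlapped for all 20, while 14.6% of all tested rows had groups that did not overlap.

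The 4 most abundant partners were at levels like those of miR-9. let-7b-5p, which restrains progenitor proliferation, had GDE and Control means of 8281 ± 105 and 8407 ± 227 RPM, with libraries from 8165 to 8653 RPM. miR-34a-5p, a p53 target that restrains the cell cycle, was at 7801 ± 383 and 7814 ± 152 RPM. miR-181a-5p was at 7232 ± 343 and 7545 ± 196 RPM, and let-7d-5p, which like miR-9-5p is known to repress Nr2e1, at 6711 ± 528 and 7401 ± 305 RPM (SD, n = 3 each). let-7d-5p gave the lowest adjusted p of the list (0.57 in limma), at a log2 fold of -0.14 ± 0.073 (SE).

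miRNAs of other cells were read beside the family because these are bulk samples, in which fewer cells of a type and less RNA per cell cannot be told apart. Markers of neurons summed to 960.8 to 1365 RPM in the GDE and 982.0 to 1199 RPM in the Control libraries (4 of 4 in the table). Those of microglia and leukocytes summed to 409.1 to 572.5 RPM in GDE and 222.5 to 369.7 RPM in Control (5 of 5). Those of red cells summed to 73.8 to 93.5 and 35.0 to 69.0 RPM (3 of 3). The groups did not overlap in either sum, as in 14.6% of single tested rows. Members of these lists differed: miR-155-5p had a log2 fold of -0.25, against 1.55 for miR-223-3p, 1.28 for miR-150-5p, 1.72 for miR-142a-3p and 1.23 for miR-142a-5p. The red cell markers miR-486a-5p and miR-451a were at 0.049 and 0.996. Those of the oligodendrocyte lineage summed to 209.5 to 264.5 and 159.7 to 235.0 RPM (3 of 3), of endothelial and mural cells to 339.7 to 558.8 and 316.0 to 408.9 RPM (4 of 4), and of choroid plexus, by miR-204-5p alone, to 384.5 to 973.5 and 154.7 to 519.1 RPM. The liver miRNA miR-122-5p was at 8.2 to 17.9 RPM and muscle markers summed to at most 1.1 RPM. No marker was at 0 in all libraries. The 2 muscle markers and 1 of the red cell markers, miR-144-3p, were under the filter and not tested, and none of the others passed the threshold in limma; their part in the levels of miR-9 was not tested.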

How the data were processed

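The table held 1522 mature miRNA rows for 6 small RNA libraries. Per the file headers the columns deposited by the authors are called expression only, and they were read as RPM from the values: in each library the nonzero values were whole multiples of 1 step (100% within 0.1 tags), which gave back whole tags and the depth, 11751000 to 12385000 tags, of which 2927136 to 3343808 were in the table. Bowtie2 and mm10 are named, per the submitters' processing notes. No label describes adapter trimming, the treatment of reads matching several miRNAs, molecular identifiers or the use of strand, so these steps are unknown here.

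Group and replicate number came from the library titles, where IUGR is GDE and Normal is Control per the design text. Log2 folds (GDE minus Control) and their errors came from limma 3.58.1 (R 4.3.3) with a trend on log2(RPM + 1), over the 649 rows that reached 1 RPM in no fewer than 3 libraries, two-sided, Benjamini-Hochberg threshold 0.05. Folds on this scale understate the change of low miRNAs. Arm ratios (5p over 3p) were fitted likewise over 146 arm pairs. Single values had exact permutation tests in scipy 1.17.1 (Python 3.11.15). The whole tags were also fitted: 2 miRNAs were called by edgeR 4.0.16 and 7 by DESeq2 1.42.0. The fits were tested on simulated data. The other alternatives were the pseudocount, filter, scaling, each library left out, and the replicate number as a block.

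Sequences and positions are from RefSeq (GRCm38.p6), matched by name for 960 of 1147 named rows, and overlapping genes from GENCODE M21 (GRCm38, the assembly called mm10). Named miRNAs were the family, rows sharing a seed or an 18-base reverse complement with it, the rows next to it in level, the 3 nearest in pattern, the 4 most abundant and any called neurogenesis partners, the antisense pairs of highest level and extreme ratio, and precursors within 10 kb. The members, lists and tests were chosen with earlier results of these data known. Intervals on tags are exact binomial at 95% and cover counting error only.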

Additional observations from a re-analysis of the deposited data

How the results depend on the processing

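Over 16 alternatives the 3 tested members gave 48 values, of which 0 passed the threshold (limma, edgeR or DESeq2 adjusted p from 0.702 to 1.0); 32 kept the sign of the reported fold and 16 changed it. The sign of miR-9-5p and of miR-9-3p turned positive when libraries were rescaled to the table sum (0.054 and 0.050), with TMM factors (0.096 and 0.093), in edgeR (0.091 and 0.098) and in DESeq2 (0.085 and 0.093). That of miR-9b-3p turned negative on tags with no scaling for depth (-0.0012), an alternative chosen after seeing the data. Leaving out 1 library at a time moved the log2 fold of miR-9-5p from -0.029 to 0.028, of miR-9-3p from -0.060 to 0.067, of miR-9b-3p from -0.010 to 0.027 and of the miR-9 arm ratio from -0.062 to 0.040. The number of miRNAs called was 2 to 3 in those fits, 1 with a filter of 10 RPM, which tests fewer rows, and 7 in DESeq2; the cause of the latter was not tested. For miR-9b-5p, under the filter, the difference of mean log2 values was 0.33, 0.89 with a pseudocount of 0.1 RPM and 0.047 with 10 RPM; it was not run in edgeR or DESeq2. With a replicate block the values were -0.0060 for miR-9-5p, -0.0092 for miR-9-3p and 0.0085 for miR-9b-3p, with 2 miRNAs called as without it. With the block no member passed the threshold. Same-numbered libraries did not deviate together (r of -0.03, -0.12 and -0.03 across miRNAs, which are not independent replicates). Between unlike numbers r ran from -0.074 to 0.146. So few correlations cannot decide whether libraries of the same number shared a step of preparation.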
